A study of Rattus norvegicus with 35 samples.

Results

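The aryl hydrocarbon receptor axis was followed in adult rat retinas after optic nerve injury, through 7 genes: the receptor Ahr, its partner Arnt and the neuronal partner Arnt2, and the target genes Cyp1a1, Cyp1b1, Nqo1 and Tiparp. These 7 are among 14217 genes with 1 gene symbol on the array, and their 10 probe sets are among 31042 tested. The genes were picked by name, and for each the probe set was chosen by its mean signal over all 35 arrays, with no use of the groups. Changes of Ahr on these arrays were known when the genes were picked, so its own calls are given as a description and not as independent evidence. Left retinas came from adult female Sprague-Dawley rats that were naive, or had undergone intraorbital nerve transection (IONT) near the optic disc or intraorbital nerve crush (IONC) farther from the eye. No transgene is named for any group, and no agent is named as a treatment. Xylazine and ketamine were used for anesthesia. Naive rats had no experimental manipulation, and no sham-operated group is named. Every array was hybridized with 1 pool of RNA from 4 retinas of different animals, so that p-values measure the spread between pools. There were 5 naive arrays. Of the IONT groups, those killed after 12 h, 48 h and 7 d had 3 arrays and those after 24 h, 3 d and 15 d had 2. All 5 IONC groups, which run from 12 h to 7 d and lack 15 d, had 3 arrays. Values are log2 signals of a probe set, which sums several short probes for 1 transcript, and changes are differences between group means on this log2 scale.

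The receptor is a ligand-activated transcription factor of the bHLH-PAS family. Without a ligand it is held in the cytoplasm by a chaperone complex, and with one it enters the nucleus, pairs with Arnt and binds short response elements near its target genes. It responds to dioxins and other pollutants and to products of tryptophan such as kynurenine, and in the retina it is known from the pigment epithelium and glia. Cyp1a1 and Cyp1b1 encode cytochrome P450 enzymes that are classical readouts of an active receptor, Nqo1 encodes a quinone reductase that is also a target of the antioxidant factor Nrf2, and Tiparp encodes an ADP-ribosyltransferase that feeds back on the receptor.

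The core of the response element, GCGTG, was looked for on both strands in the 250 bases before the start of each gene in the RefSeq promoter table (rat build GRCr8), which matched 6 of the 7 genes. Of these 6 windows 4 held the core. It occurred in 25.9% of all 33469 windows of this length, and it overlaps the core of the hypoxia response element. Cyp1b1 held it at 81 to 77 bases before the start on the reverse strand and at 20 to 16 bases before the start on the forward strand. The forward match also had the first letters of the longer element TNGCGTG, which was found in 4.09% of all windows. Tiparp held the core at 136 to 132 bases, Nqo1 at 10 to 6 bases and Arnt at 42 to 38 bases before the start, while the windows of Ahr and Arnt2 did not contain these letters. The windows of the 3 matched target genes are shown because the question is whether these genes follow the receptor, with the core in capitals.
Cyp1b1 (chr6:21094315-21094564, plus strand): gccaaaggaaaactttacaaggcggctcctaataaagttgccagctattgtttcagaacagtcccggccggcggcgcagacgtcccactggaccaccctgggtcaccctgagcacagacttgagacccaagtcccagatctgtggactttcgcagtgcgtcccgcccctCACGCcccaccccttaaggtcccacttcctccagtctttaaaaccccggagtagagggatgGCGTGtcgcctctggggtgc
Nqo1 (chr19:52220268-52220517, minus strand): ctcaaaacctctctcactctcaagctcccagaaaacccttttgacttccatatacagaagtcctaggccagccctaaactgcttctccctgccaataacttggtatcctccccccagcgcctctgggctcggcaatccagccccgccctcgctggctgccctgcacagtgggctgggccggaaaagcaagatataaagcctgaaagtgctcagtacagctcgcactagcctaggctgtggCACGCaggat
Tiparp (chr2:152063519-152063768, plus strand): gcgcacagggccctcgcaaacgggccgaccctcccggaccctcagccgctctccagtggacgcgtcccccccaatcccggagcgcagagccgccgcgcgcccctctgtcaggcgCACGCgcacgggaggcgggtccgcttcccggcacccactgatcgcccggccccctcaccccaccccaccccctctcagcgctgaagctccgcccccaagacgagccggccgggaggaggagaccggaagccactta

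The arrays fell into sets by their β-actin control, whose 3′ end reads brighter than its 5′ end where labelled transcripts are short. This gap on the log2 scale was 1.53 to 1.93 on 27 arrays (array set 1) and 2.61 to 3.65 on the other 8 (array set 2), which are naive replicates 4 and 5 and all arrays of IONT 24 h, 3 d and 15 d. These 3 groups were therefore compared with naive replicates 4 and 5, and the other 8 with naive replicates 1 to 3. Between the naive arrays of the sets, Arnt differed by -0.89 (SE 0.22, adjusted p = 0.00579 with limma), Cyp1b1 by 0.31 and Arnt2 by 0.75, but Ahr by 0.07 (SE 0.40). Replicate 2 of IONC 12 h was unlike the rest (median r with all others 0.871, where the remaining arrays had 0.962 to 0.992), and the IONC 12 h values of Ahr, Nqo1, Tiparp and Cyp1b1 are also given without it. The word called is used of a probe set that met 3 limits together: adjusted p (over the whole table) below 0.01, B, the log odds of a change, over 0, and 1.2-fold or more between means.

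Ahr, the receptor, rose after both lesions, most at 12 h and 48 h after IONT. In naive retinas its log2 signal was 5.96, 5.83 and 5.78 in replicates 1 to 3 and 6.0 and 5.85 in replicates 4 and 5. After IONT it was 9.08, 9.0 and 8.24 at 12 h and 8.66, 8.44 and 9.11 at 48 h. All 6 of these arrays lay above every naive array by over 2 log2 units. At 7 d after IONT the arrays read 7.06, 7.19 and 7.33, lower than at 12 h or 48 h and above naive. At the 3 times measured in array set 2 the signal was close to naive, with 6.26 and 6.60 at 24 h. The arrays of 3 d read 6.18 and 5.73 and those of 15 d read 6.35 and 5.96. The values at 24 h lay just above their naive arrays, and those at 3 d and 15 d overlapped them.

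After IONC the signal of Ahr was 8.60, 7.50 and 7.96 at 12 h and 7.67, 7.04 and 8.01 at 24 h. It was 6.86, 6.0 and 7.35 at 48 h, 6.67, 6.96 and 6.77 at 3 d, and 8.50, 6.93 and 7.18 at 7 d. Every IONC array exceeded naive replicates 1 to 3, by little in replicate 2 of 48 h. In array set 1 the means ran IONT 12 h (8.78), IONT 48 h (8.74), IONC 12 h (8.02), IONC 24 h (7.57), IONC 7 d (7.54), IONT 7 d (7.19), IONC 3 d (6.80), IONC 48 h (6.73) and naive (5.86). Neighbours in this order overlapped, except IONT 7 d against IONC 3 d and IONC 48 h against naive. In array set 2 the order was IONT 24 h (6.43), IONT 15 d (6.15), IONT 3 d (5.95) and naive (5.93), and all neighbours overlapped.

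**Figure D1:**
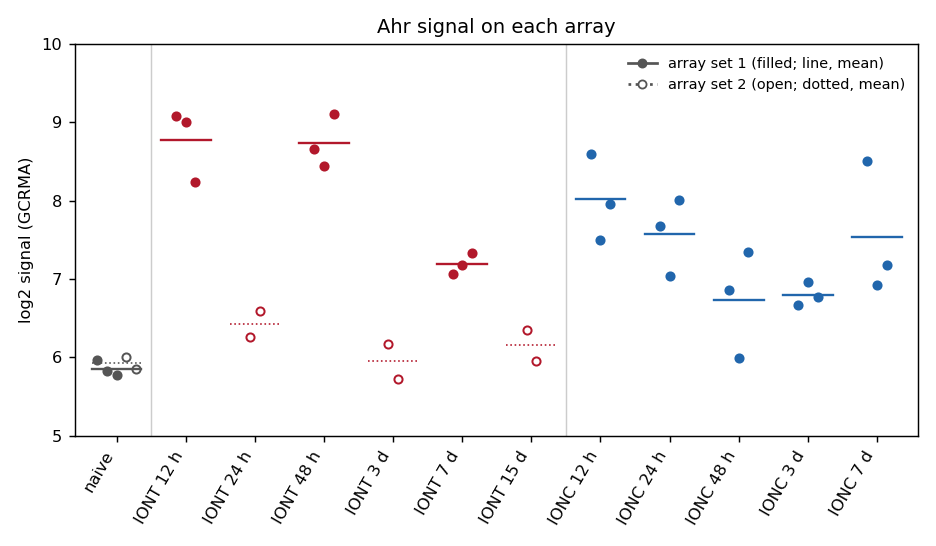
Log2 signal of Ahr on each of the 35 arrays by group, grey for naive, red for IONT and blue for IONC, with filled points for array set 1, open points for array set 2 and a line for each mean. The IONT arrays at 12 h and 48 h lie between 8.24 and 9.11, while the open points of IONT 24 h, 3 d and 15 d lie between 5.73 and 6.60.

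Against naive, Ahr was called higher in 4 of 11 comparisons. In IONT 12 h it rose by 2.92, or 7.56-fold (SE 0.36, adjusted p = 1.58e-05), and in IONT 48 h by 2.88, or 7.36-fold (SE 0.36, adjusted p = 1.16e-05). In IONC 12 h the rise was 2.16, or 4.47-fold (SE 0.36, adjusted p = 0.000288), and in IONC 24 h it was 1.72, or 3.29-fold (SE 0.36, adjusted p = 0.00866). The share of all probe sets called was 1.05% at 12 h and 2.06% at 48 h after IONT, and 4.14% at 12 h and 0.896% at 24 h after IONC. In IONT 7 d the change was 1.34 (adjusted p = 0.0519) and was not called. The same holds for IONC 48 h with 0.88 (adjusted p = 0.252), IONC 3 d with 0.95 (adjusted p = 0.365) and IONC 7 d with 1.68 (adjusted p = 0.0142). The last was called without IONC 12 h replicate 2 (adjusted p = 0.00508), with all naive arrays as 1 group (1.65, adjusted p = 0.00375) and in 10 of 50 alternatives in all. Without the same replicate the change of Ahr at IONC 12 h was 2.42 (SE 0.39, adjusted p = 0.000198). For IONT 24 h, 3 d and 15 d the changes were 0.50 (95% interval -0.40 to 1.40), 0.03 (-0.88 to 0.93) and 0.23 (-0.68 to 1.13). Since these times were measured only in array set 2, the effect of time and that of the array set on Ahr cannot be told apart. The background share in these uncalled comparisons was 0.831% at IONT 24 h, 0.954% at IONT 3 d, 0.976% at IONT 7 d, 1.87% at IONT 15 d, 1.36% at IONC 48 h, 0.348% at IONC 3 d and 0.577% at IONC 7 d. When each array was left out in turn, IONC 24 h was called in 13 of 35 fits (change 1.5 to 1.98, adjusted p 0.00184 to 0.0664), while the IONT 12 h, IONT 48 h and IONC 12 h calls were made in all 35.

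A second Ahr probe set read 2.09 to 2.4 on all arrays, near the lowest signals of the array, and its changes lay between -0.11 and 0.08. Averaging the 2 probe sets brought the change at 12 h after IONT down to 1.47, which was still called.

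The lesions were set against each other at the same time after injury. At 48 h Ahr was lower after IONC than after IONT (-2.0 on the log2 scale, SE 0.36, adjusted p = 0.00805), or 4.01-fold, and the 3 IONC arrays, up to 7.35, did not overlap the 3 IONT arrays, from 8.44. It was the only 1 of 35 pairs of a member and a time that was called, against 0.145% of all probe sets at 48 h. Without IONC 48 h replicate 2 the difference was -1.63 (adjusted p = 0.0728) and without IONT 48 h replicate 3 it was -1.82 (adjusted p = 0.0712). Over all 35 fits that left out 1 array, it ran from -2.31 to -1.63 and was called in 12. At 12 h the difference for Ahr was -0.76 (95% interval -1.5 to -0.02, adjusted p = 0.124), and -0.5 (adjusted p = 0.847) without IONC 12 h replicate 2. It was, at 7 d, 0.34 (-0.39 to 1.08), and, each lesion from its own naive arrays, 1.22 (0.05 to 2.38) at 24 h and 0.92 (-0.25 to 2.09) at 3 d. Of all probe sets, 1.32% were called between the lesions at 12 h, 0.235% at 24 h and 0.126% at 3 d, and for 7 d the share was 0.0548%.

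Within a lesion Ahr did not change between 12 h and 48 h after IONT by more than the error (-0.04, SE 0.36), while it was lower by 1.58 at 7 d than at 12 h (-1.58, SE 0.36, adjusted p = 0.0121). That difference was not called with all arrays, but it was without IONC 12 h replicate 2 (adjusted p = 0.00369) and in 11 of 50 alternatives in all. After IONC the 48 h minus 12 h difference was -1.28 (adjusted p = 0.0763) and the 7 d minus 12 h difference -0.48 (adjusted p = 0.365), and from 24 h to 15 d after IONT it was -0.27 (adjusted p = 0.943). None of the 35 pairs of a member and a comparison of times was called. The backgrounds were 0.2% for IONT 48 h minus 12 h, 1.42% for IONT 7 d minus 12 h, 0.316% for IONC 48 h minus 12 h, 0.599% for IONC 7 d minus 12 h and 1.89% for IONT 15 d minus 24 h. The drop of Ahr from 12 h to 48 h differed between the lesions by -1.25 (SE 0.51, adjusted p = 0.393), against a background of 0.364%, in a comparison added after the values were seen.

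Of the classical target genes, Cyp1a1 stayed near the lowest signals in every group, and Cyp1b1 was low, at percentiles 17.3 to 39 of each array. Cyp1a1 read 1.98, 1.96, 1.96, 1.96 and 1.96 in the naive arrays and 1.97, 1.98 and 1.97 at 12 h after IONT, where Ahr was highest. Over all 35 arrays it lay between 1.89 and 2.21, at percentiles 3 to 3.9 of each array. The highest value, 2.21, came from IONC 12 h replicate 2, and its changes from naive were -0.06 to 0.09. A signal this low on the array cannot show a fall, and a rise that stays within background would not be seen.

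Cyp1b1, a cytochrome P450 known from inherited glaucoma, read 2.42, 2.4, 2.32, 2.93 and 2.46 in the naive arrays. At 12 h after IONT it was 2.43, 2.39 and 2.34, and at 12 h after IONC 2.55, 2.67 and 2.43. The IONT arrays overlapped naive replicates 1 to 3 and the IONC arrays lay slightly above them, by 0.17 (SE 0.09, adjusted p = 0.123), or 0.11 (adjusted p = 0.704) without replicate 2 of IONC 12 h. Its change of -0.36 (adjusted p = 0.0986) at 24 h after IONT depends on which naive array it is set against. Replicate 4, at 2.93, was the highest of all 35 arrays, and without it the change of Cyp1b1 was -0.12 (adjusted p = 1), while without replicate 5 it was -0.59 (adjusted p = 0.0014) and was called.

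Nqo1, the quinone reductase, was measured well inside the range of the array and spread widely between pools. In naive retinas it read 5.87, 5.36 and 4.93 in replicates 1 to 3 and 5.31 and 4.93 in replicates 4 and 5. At 12 h after IONT it was 5.91, 6.28 and 6.46, all above naive, at 48 h 6.03, 5.81 and 5.49, and at 7 d 5.08, 5.12 and 4.86. The change at 12 h was 0.83 (SE 0.42, 95% interval -0.03 to 1.69, adjusted p = 0.711), so that it could not be told from the spread between pools. After IONC it was 6.53, 5.15 and 6.01 at 12 h, 6.14, 6.31 and 5.12 at 24 h and 6.78, 5.43 and 5.12 at 48 h, and each of these groups overlapped naive. The change of Nqo1 at IONC 12 h was 0.51 (adjusted p = 0.317), and 0.88 (adjusted p = 0.3) without replicate 2. The difference between 7 d and 12 h after IONT was -1.20 (SE 0.42, adjusted p = 0.157), with no overlap of the arrays.

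Tiparp, the ADP-ribosyltransferase, was steady in most groups. Its naive arrays read 7.70, 7.83 and 7.59 in replicates 1 to 3 and 8.20 and 8.10 in replicates 4 and 5. At 12 h after IONT it was 8.31, 7.98 and 7.94, all above naive replicates 1 to 3, a change of 0.37 (SE 0.56, adjusted p = 1), and at 48 h it was 7.95, 7.82 and 7.78. At 24 h and 15 d after IONT it read 8.43 and 8.36, and 8.5 and 8.43, all above naive replicates 4 and 5, with changes of 0.25 (SE 0.69) and 0.31 (SE 0.69) that were not called. After IONC it read 8.13, 4.30 and 7.89 at 12 h and 9.37, 7.70 and 7.82 at 48 h. Thus replicate 2 of IONC 12 h lay far below and replicate 1 of IONC 48 h above all other arrays. The change at IONC 12 h was -0.93 (adjusted p = 0.183) with that replicate and 0.31 (adjusted p = 0.797) without it, and at IONC 48 h it was 0.59 with replicate 1 and 0.05 without it. The other Tiparp probe set read 3.90 to 5.65 at IONC 12 h against 6.06 to 6.54 in naive replicates 1 to 3, a change of -1.50 (SE 0.41, adjusted p = 0.019) that was not called and that was -1.05 (adjusted p = 0.14) without replicate 2. The 2 probe sets differed in sign at IONC 24 h (0.10 and -1.11).

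Arnt, the partner of the receptor, was low on the array, and none of its 11 changes from the naive arrays of the same set was above 0. With all naive arrays as 1 group the sign turned in 3 of them, to 0.17 at IONT 48 h, 0.12 at IONT 7 d and 0.26 at IONC 3 d, of which none was called. It read 3.86, 4.03 and 3.70 in naive replicates 1 to 3 and 2.61 and 3.32 in replicates 4 and 5. At 12 h after IONT it was 3.39, 3.40 and 3.46, at 12 h after IONC 3.40, 3.52 and 3.35 and at 48 h after IONC 3.11, 3.12 and 3.46. In these 3 groups every array lay below naive replicates 1 to 3, and the changes were -0.45 (adjusted p = 0.532), -0.44 (adjusted p = 0.0915) and -0.64 (adjusted p = 0.0903). The arrays of IONC 24 h (3.39 to 3.43, change -0.45) and IONC 7 d (3.43 to 3.47, change -0.42) also all lay below them, and neither change was called. How many of all probe sets lie apart from naive in this way was not computed.

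Arnt2, the partner that is found mainly in neurons, read 4.49, 4.38 and 4.47 in naive replicates 1 to 3 and 5.42 and 4.98 in replicates 4 and 5. At 12 h and 48 h after IONT it was 4.56, 4.84 and 4.19, and 4.46, 4.57 and 4.28, and overlapped naive. At 15 d after IONT it was 6.0 and 6.36, above naive replicates 4 and 5, a change of 0.98 (SE 0.29, adjusted p = 0.0609). With all 5 naive arrays as 1 group that change was 1.43 (adjusted p = 0.00111) and was called. Its second probe set stayed near the lowest signals, at 1.96 to 2.34 on all arrays.

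**Figure D2:**
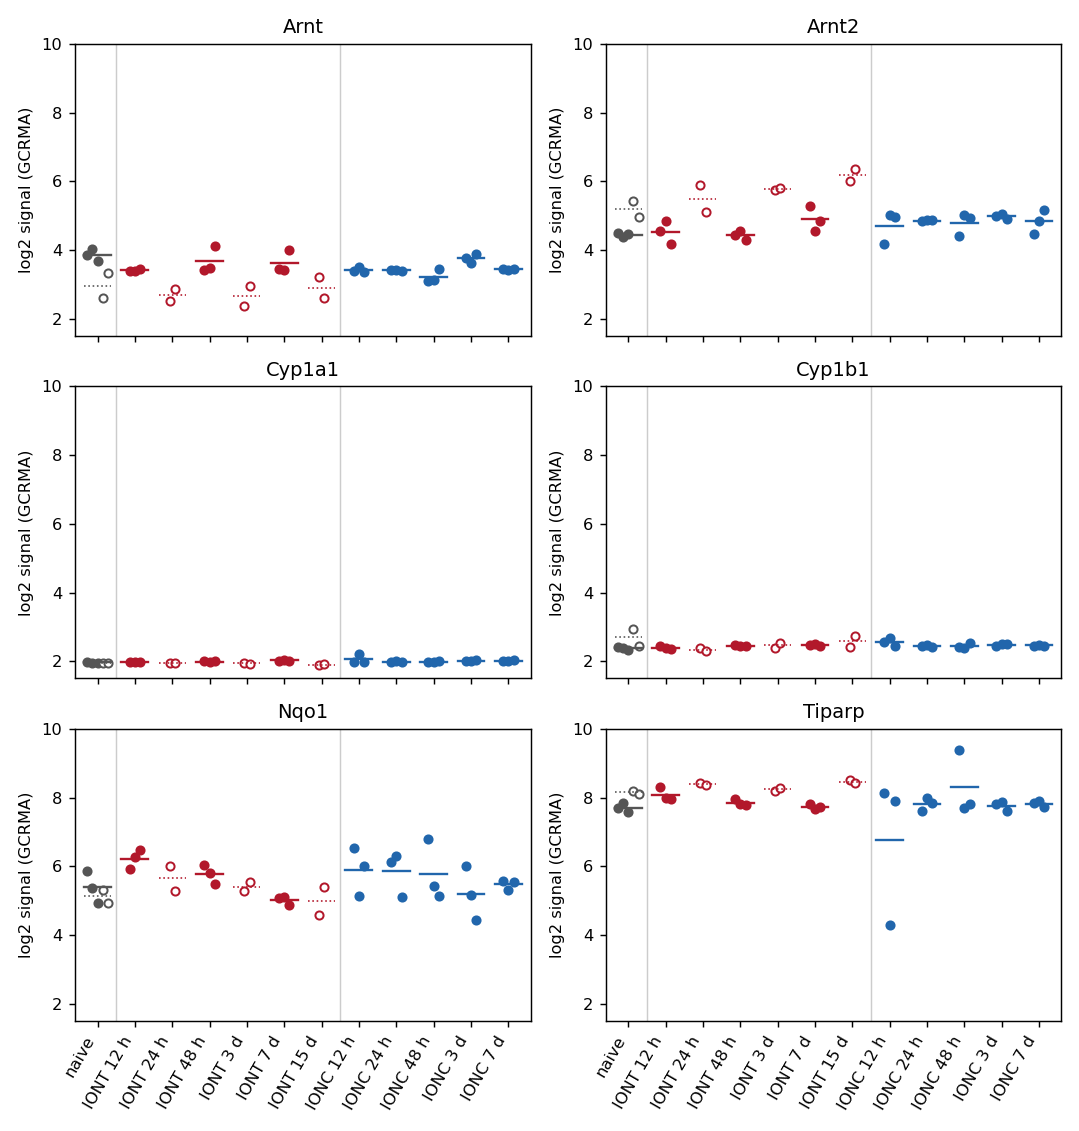
Log2 signal of the other 6 genes on each array by group, on a common scale, with colors and symbols as for Ahr. Cyp1a1 and Cyp1b1 lie between 1.89 and 2.93 in all groups, and the Tiparp values of 4.30 at IONC 12 h and 9.37 at IONC 48 h are single arrays.

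Apart from Ahr, none of the 6 genes was called against naive, in 66 pairs of a gene and a comparison, nor between lesions or times. Of the 77 pairs of all 7 genes, 4 were called, those of Ahr. The median change of the 7 genes was 0.08 at 12 h after IONT against 0.01 for all genes with 1 symbol. It was 0.07 against 0.02 at 48 h after IONT and 0.17 against -0.08 at 12 h after IONC.

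**Figure D3:**
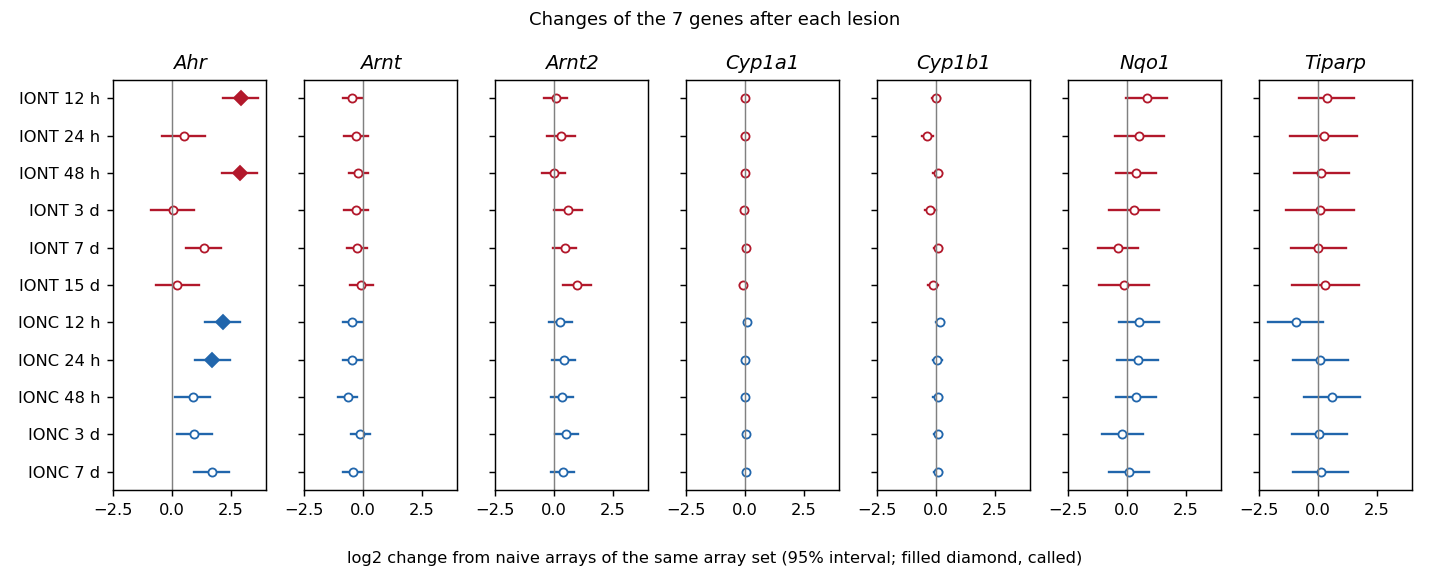
Log2 change of each gene from the naive arrays of the same array set in the 11 injured groups, with 95% intervals, red for IONT and blue for IONC, and filled diamonds for called changes. Only Ahr has filled diamonds, at IONT 12 h and 48 h and at IONC 12 h and 24 h.

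Whether the other genes follow the receptor was tested over the means of the 8 injured groups of array set 1, each mean of 3 arrays, with exact two-sided permutation tests adjusted over the 6 genes and a limit of 0.05 on the adjusted p. Nqo1 had a Pearson r with Ahr of 0.65 (exact permutation p = 0.0752, adjusted p = 0.226) and a Spearman rho of 0.76 (exact permutation p = 0.0368, adjusted p = 0.173). Tiparp had r = -0.16 (exact permutation p = 0.743) and rho = 0.05 (p = 0.935). Cyp1b1 (r = -0.29, exact permutation p = 0.507, rho = -0.45, p = 0.267) was low on the array and Cyp1a1 (r = -0.33, p = 0.414, rho = -0.48, p = 0.243) near the lowest signals. At such levels r cannot show whether a gene followed Ahr. Arnt had r = 0.05 (exact permutation p = 0.906) and rho of 0 (p = 1). Arnt2 ran against Ahr, with r = -0.89 (exact permutation p = 0.00432, adjusted p = 0.0259) and rho = -0.71 (p = 0.0576, adjusted p = 0.173). Without IONT 12 h and IONT 48 h, the groups farthest from the median of Ahr, r for Arnt2 was -0.60 (exact permutation p = 0.208), so that the relation passed the limit only with these groups, in a test left with 6 groups and a narrower range of Ahr. In the same 6 groups r for Nqo1 was 0.46 (exact permutation p = 0.342), for Tiparp -0.79 (p = 0.0458, adjusted p = 0.275), for Cyp1b1 0.55 (p = 0.265), for Cyp1a1 0.52 (p = 0.307) and for Arnt -0.17 (p = 0.746). Among these 6 groups IONC 12 h had the highest Ahr and IONC 48 h the lowest. Tiparp was pulled down in IONC 12 h by replicate 2 (4.30) and up in IONC 48 h by replicate 1 (9.37). The r of -0.79 may rest on these single arrays, and it was not tested without them. Over the alternatives run, r for Tiparp in all 8 groups lay between -0.33 and 0.12. In array set 2, Nqo1 and Tiparp were 5.65 and 8.40 at 24 h after IONT, 5.41 and 8.23 at 3 d and 4.99 and 8.46 at 15 d, against 5.12 and 8.15 in naive, and the values of Nqo1 overlapped naive at each time, those of Tiparp at 3 d alone.

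**Figure D4:**
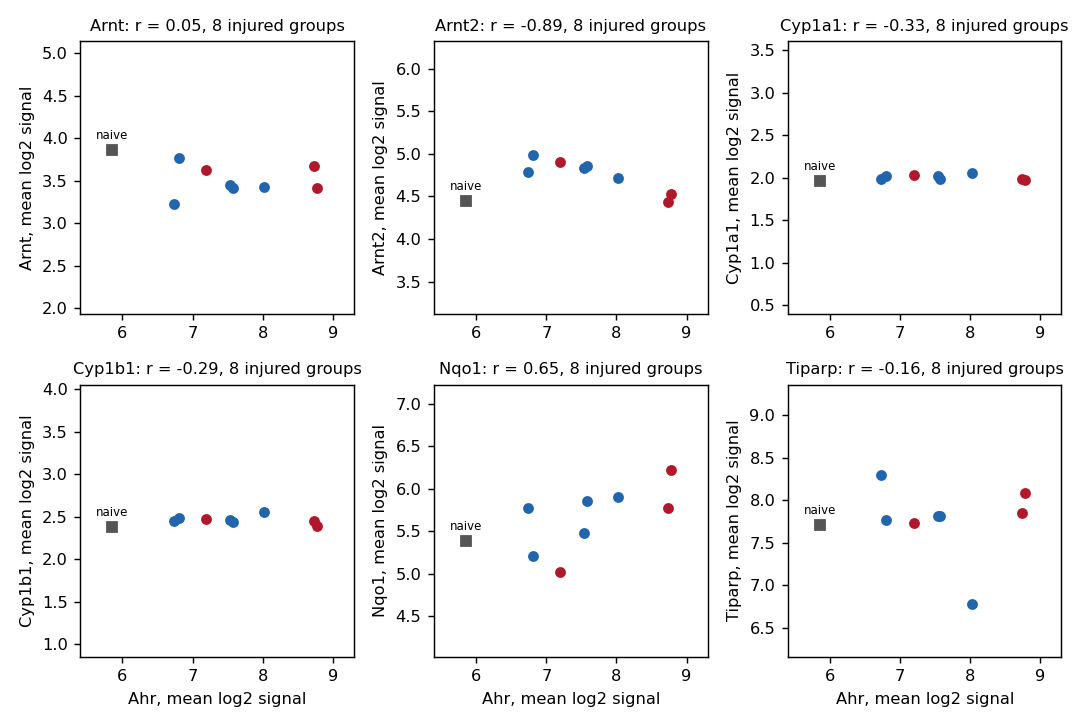
Mean log2 signal of each other gene against that of Ahr in the 8 injured groups of array set 1 (red for IONT, blue for IONC) and in naive replicates 1 to 3 (square), with Pearson's r over the injured groups. Arnt2 is lowest where Ahr is highest among the injured groups (r = -0.89), but the naive square, with the lowest Ahr, is also low in Arnt2.

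The genes whose arrays ran most like Ahr over the 27 arrays of array set 1 were Crot (r = 0.888), Kif11 (0.876), Naa35 (0.870), Dclk1 (0.869) and Klhl29 (0.866), of 9382 genes with a mean log2 signal above 4. Without IONC 12 h replicate 2 Crot still ranked 1 and Kif11 ranked 5, while Naa35, Dclk1 and Klhl29 ranked 8, 11 and 13. Crot encodes a carnitine acyltransferase of peroxisomes, Kif11 a motor of the mitotic spindle, Naa35 a subunit of an N-terminal acetyltransferase and Dclk1 a microtubule-associated kinase. Dclk1 went from 7.98 in naive replicates 1 to 3 to 11.77 at 12 h and 11.18 at 48 h after IONT, and Kif11 from 2.06, near the lowest signals, to 7.68 and 6.87. In array set 2, which did not enter the ranking, Dclk1 changed by 1.47, 1.76 and 1.09 at IONT 24 h, 3 d and 15 d. Kif11 changed there by 1.71, 1.27 and 1.65, and Ahr by 0.50, 0.03 and 0.23. None of these changes was called. Among the other members, Nqo1 had r = 0.36 with Ahr over these arrays, Cyp1b1 0.12, Tiparp 0.07 (0.17 without IONC 12 h replicate 2), Cyp1a1 -0.05, Arnt -0.19 and Arnt2 -0.29. Arrays of a group share lesion and time and all share the naive arrays, so that these values are descriptions.

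Other genes around the receptor were grouped in 6 lists. Over all genes, 3.97% were called higher and 5.16% lower in at least 1 of the 11 comparisons with naive. Of 11 measured genes of the receptor complex and its cofactors, 0 were ever higher and 1, Rb1, was lower. Rb1, the retinoblastoma protein that can bind the receptor, fell by 0.60 at 12 h after IONC (-0.60, adjusted p = 0.00636), from 8.37 to 8.47 in naive replicates 1 to 3 to 7.21 to 8.13. That change was -0.29 without IONC 12 h replicate 2 (adjusted p = 0.000921) and, with all naive arrays as 1 group, -0.48 (adjusted p = 0.0132, not called). Among 8 further target genes 0 were called either way. Of these, Ahrr, the receptor's repressor, was at 2.00 in naive replicates 1 to 3 and 2.01 at 12 h after IONT, and Cyp1a2 was at 1.92 in both. Nfe2l2, which encodes Nrf2 and belongs to this list and the next, had a change of 1.57 in IONT 12 h (adjusted p = 0.0497) and of 1.48 in IONT 48 h (adjusted p = 0.0464), values that did not pass the threshold. In the Nrf2 battery, targets and partners of the factor that also drives Nqo1, 0 of 16 measured genes were called. The list's median change was 0.38 at 12 h and 0.44 at 48 h after IONT, against 0.01 and 0.02 for all genes with 1 symbol. Of 12 hypoxia targets, which depend on Arnt as partner of Hif1a, 0 were called, with median changes of -0.06 and 0.03 at these times.

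The remaining lists each held 1 gene that changed. Aadat, an aminotransferase that makes kynurenic acid, a ligand of the receptor, was the 1 of 10 measured genes of the kynurenine route that rose. From 6.72 to 6.94 in naive replicates 1 to 3, it reached 8.80 to 9.19 at 12 h after IONT, a change of 2.18 (SE 0.34, adjusted p = 0.000313), and it was called in 6 of 11 comparisons. It also rose at IONT 3 d (2.00, adjusted p = 0.00807) and 15 d (1.99, adjusted p = 0.00518), where Ahr changed by 0.03 and 0.23. At 12 h after IONC Aadat rose by 1.86 (adjusted p = 0.000802), and by 2.49 (adjusted p = 5.98e-07) without replicate 2. The enzymes that open the route, Ido1 and Tdo2, were at 2.00 and 2.14 in naive replicates 1 to 3, near the lowest signals. Of 11 other bHLH-PAS factors, 1 was lower, Bmal1, the partner of Clock in the circadian clock. Bmal1 went from 10.25 to 10.39 in naive replicates 1 to 3 to 7.66 to 9.03 at 12 h after IONC (-1.80, SE 0.23, adjusted p = 1.57e-05) and 8.96 to 9.08 at 48 h after IONT (-1.31, adjusted p = 0.000931). Without IONC 12 h replicate 2 the first change was -1.36 (adjusted p = 8.6e-06). Leaving out that replicate raised the number of comparisons called from 6 to 10 for Aadat, from 2 to 6 for Bmal1 and from 1 to 5 for Rb1. For Bmal1, naive replicates 4 and 5 were lower, at 9.34 to 9.48, and with all naive arrays as 1 group the change at IONT 48 h was -0.94 (adjusted p = 0.0274) and was not called.

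**Figure D5:**
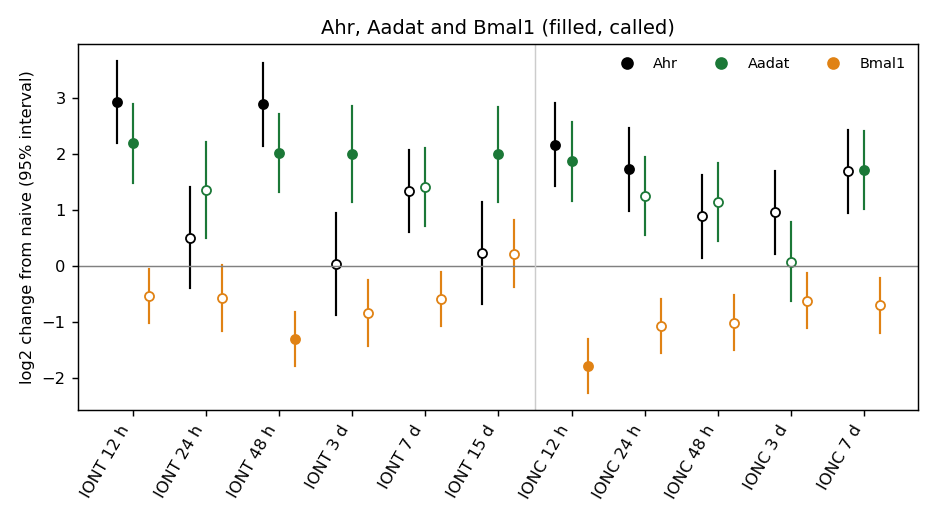
Log2 change from the naive arrays of the same array set for Ahr, Aadat and Bmal1 in the 11 injured groups, with 95% intervals and filled points for called changes. Aadat is raised at IONT 3 d and 15 d, where Ahr is near 0, and Bmal1 has filled points at IONT 48 h and IONC 12 h.

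In whole retinas, fewer cells of a type and less RNA per cell cannot be told apart, and the same holds for more of either. Markers of retinal ganglion cells were present and their summed linear signal (6 of 6 measured) fell from 6860 to 6930 in naive replicates 1 to 3 to 788 to 1040 at 7 d after IONT, with 5 of 6 called lower there. For microglia and macrophages (8 of 8 measured) the sum was 169 to 202 in naive replicates 1 to 3, 370 to 627 at 12 h and 741 to 1670 at 48 h after IONT, where 2 of 8 were called higher, Csf1r and Lyz2. After IONC it was 221 to 848 at 12 h, 825 to 2010 at 48 h, 655 to 3430 at 3 d and 491 to 861 at 7 d, and in IONT 3 d, where Ahr was near naive, it was 992 to 1680. Leaving out IONC 12 h replicate 2, 3 of the 8 were called higher at IONT 48 h, IONC 48 h and IONC 3 d, against 2, 1 and 1 with it. At IONT 3 d it was 2 against 0. Cx3cr1 and Cd163, 2 of the 8 markers on this list, were near the lowest signals in naive retinas, at 2.47 and 2.31. The sum for endothelium (7 of 8 measured) was 5320 to 5510 in naive replicates 1 to 3. At 12 h after IONT it was 3530 to 4210, with 0 of 7 genes called and a list median change of -0.01. Without IONC 12 h replicate 2, 1 of the 7 was called lower there. At 12 h after IONC 2 of the 7 were called higher and 0 lower. For Muller glia (5 of 5) the sum was 19100 to 19800 in naive replicates 1 to 3 and 17900 to 20200 at 12 h after IONT. There 1 of the 5 was called higher and 1 lower (2 lower without IONC 12 h replicate 2), with a list median change of -0.24. The gene called higher was Gfap, the gliosis marker, which rose by 4.28 (adjusted p = 1.14e-07 with limma). For the pigment epithelium (4 of 5) the sum was 1100 to 1810 in naive replicates 1 to 3. It was 2160 to 4160 at 12 h and 1920 to 3400 at 48 h after IONT. After IONC it was 594 to 1900 at 12 h, 926 to 1110 at 48 h and 1940 to 2970 at 3 d. In naive replicates 4 and 5 it was 2240 to 3690, and none of the 4 markers was called in any comparison with naive. Of 3 measured rod markers, 1 was called lower at IONT 12 h, 2 at IONT 48 h, 2 at IONC 12 h and 1 at IONC 24 h, the comparisons in which Ahr was called, and 0 in the other 7. Their sum was 65800 to 67600 in naive replicates 1 to 3, 55400 to 62600 at IONT 12 h, 50800 to 55300 at IONT 48 h, 41200 to 50500 at IONC 12 h and 63100 to 65800 at IONC 24 h. Without IONC 12 h replicate 2 these counts of rod markers were the same, with 1 more at IONT 24 h. For fibroblasts and sclera (6 of 6) the sum was 380 to 403 in naive replicates 1 to 3, 371 to 2720 at IONT 48 h and 415 to 7070 at IONC 3 d, with 0 of 6 called. When IONC 12 h replicate 2 was left out, 1 of the 6 was called higher at IONC 3 d. The part of these cell types in the change of Ahr was not tested.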

How the data were processed

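Retinal RNA was measured on 35 Affymetrix RAE230.2 arrays. Deposited values are log2 signals, which the authors computed with GCRMA (background correction by probe sequence, quantile normalization, 1 value per probe set). No version of it is named in the sources used here. The values were used as deposited, and depth does not apply to arrays, whose number limits the precision. Of 31099 probe sets, 57 controls were left out. Symbols came from the platform annotation, and 20826 probe sets had 1 symbol, 436 several and 9780 none.

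A linear model with 1 coefficient per injured group and 2 for naive (replicates 1 to 3, and 4 and 5) was fitted in R 4.3.3 with limma 3.58.1, using all 35 arrays at once, with Benjamini-Hochberg adjustment within each comparison over 31042 probe sets. Thresholds were those of the study's methods, whose 1 naive group was an alternative. Groups came from the sample descriptions. The fit was tested on simulated data with known changes. The text names the 7 members, up to 4 called genes a list and the 5 genes most like Ahr. The members and lists were chosen with earlier results of these data known. Alternatives covered naive grouping, thresholds, filters, fit, normalization, probe set choice, the replicate number as a block and leaving out each array. Chosen after seeing the data were array set 1 alone and the comparison of lesion by time.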

Additional observations from a re-analysis of the deposited data

Results flagged for a closer look

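Ahr at 48 h was lower after IONC than after IONT (-2.0 on the log2 scale, adjusted p = 0.00805 with limma), a difference between the lesions in their change from the same naive arrays.

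Among the 5 naive arrays, the highest value of Cyp1b1 (2.93, replicate 4) and that of Cyp1a1 (1.98, replicate 1) stood apart from the other 4 by more than the 95% limit of Dixon's test, which chance passes in about 1 of 20 groups. For Cyp1a1 the whole range of the naive arrays was at the lowest signals of the array.

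At 3 d, every IONT array of Cyp1a1 lay below its naive arrays and every IONC array above its own. The difference of the changes was 0.08, and it was not tested here beyond the fit, which did not call it (adjusted p = 0.912).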

How the results depend on the processing

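Of the 4 calls of Ahr against naive, those at IONT 12 h and IONT 48 h were made under all alternatives run, and that at IONC 12 h under all but the fit of each comparison alone (2.16, adjusted p = 0.103). Members were called against naive in 8 pairs with array weights, whose estimate stopped before it converged, against 4, and in 3 to 5 when 1 array was left out. The pairs added by array weights included Nqo1 at IONC 12 h (1.2, adjusted p = 2.82e-05 with limma) and Arnt2 at IONT 7 d (0.75, adjusted p = 0.000513). Arnt2 at IONC 24 h was called when each comparison was fitted alone (0.41). With arrays centred on their medians, Cyp1b1 at IONT 24 h (-0.49) and Cyp1a1 at IONT 15 d (-0.28) were called. Between lesions, 1 call fell to 0 when each comparison was fitted alone, when arrays were centred on their medians, in array set 1 alone, and ranged from 0 to 1 when 1 array was left out. Between times, 0 calls became 1 at an adjusted p under 0.05 without B, with the filter on low signals or with cyclic loess, 6 with array weights, and 0 to 1 when 1 array was left out. The 6 with array weights were of Ahr, Nqo1 and Arnt2. Over all 28 alternatives run for these correlations, those that left out 1 array among them, r of Arnt2 with Ahr ranged from -0.98 to -0.77. For Nqo1 it ranged from 0.39 to 0.83, with an adjusted p under 0.05 only without IONC 48 h replicate 1 (0.0395). For Arnt2 the adjusted p was over 0.05 without IONT 12 h replicate 3 (-0.77), IONT 7 d replicates 1 and 2 (-0.85 each), IONC 12 h replicate 1 (-0.80) and IONC 48 h replicate 3 (-0.77). No called value changed sign in any alternative, and the cause of the other shifts was not tested.

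The replicate numbers did not meet the bar for pairing: of 168 pairs of arrays with the same number, 40 had deviations correlated above 0.1, and 14 of 27 arrays, not all, ran closest to their own number. With the replicate block the members called against naive were 3 of 77, since IONC 24 h was lost (1.72, adjusted p = 0.0101), and between lesions 1 of 35.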
